A study of Mus musculus with 12 samples.

Results

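Npas4 and 4 other genes of the bHLH-PAS family, Arnt, Arnt2, Npas2 and Npas3, were followed on polyribosomes of the mouse hippocampus. The 5 genes were taken by symbol from 24421 counted genes, and all 5 were tested. bHLH-PAS proteins are transcription factors that bind DNA as pairs through a basic helix-loop-helix region and pair through PAS domains. In most pairs a regulated subunit joins a broadly present one. Npas4 is the regulated subunit of neurons: its gene is switched on by membrane depolarization and calcium entry, and the protein acts with Arnt or Arnt2 at enhancers and promoters of activity-dependent genes, including those that shape inhibitory synapses. Npas4 in the hippocampus is known for its part in contextual memory.

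The samples were 6 control and 6 fear case libraries of polyribosomal RNA from the hippocampus of C57/Bl6 mice aged 6 weeks. The labels carry the same protocol for every library, with 8 min in an unfamiliar context, 7 min in the home cage and collection at 15 min. They do not say what set the controls apart or whether a shock was given, and no separate mouse or batch is named for any library, so the tests measure the spread between these samples, which may be technical. A pellet through a sucrose cushion holds RNA that sediments with ribosomes, so transcript amount and ribosome association cannot be told apart, nor can the number of cells of a type and the RNA per cell.

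Gene counts were 18.6 M to 21.9 M per control library and 19.3 M to 24.2 M in fear case 1 to 5, and 44.2 M in fear case 6. The share of the ribosomal RNA precursor Rn45s was also highest in fear case 6, at 12.5%, against 4.55% to 7.98% elsewhere, and its scaling factor of 0.908 was the lowest. Markers of hippocampal fields and of neurons and glia were detected in every list, with none at 0 in all libraries. Choroid plexus markers moved with the groups: all 13 had a negative log2 fold change (median -1.53), and 0 of 13 passed the test. All 13 had an unadjusted p under 0.05 with edgeR, which 7.14% of all genes tested had. Their summed level was 1045 to 2887 CPM (counts relative to library size, scaled by the trimmed mean of M-values) in the controls, 100.3 to 567 CPM in fear case 1 to 5 and 2168 CPM in fear case 6. Of 7 dentate gyrus markers 7 had a positive value (median 0.11), and negative values were found for 7 of 8 oligodendrocyte markers (median -0.13) and 6 of 7 endothelial markers (median -0.13), while 48.6% of all genes tested were positive. Of 6 CA1 markers 5 were also negative (median -0.02). With edgeR 0 of these markers passed, and 1 oligodendrocyte, 1 endothelial and 0 dentate gyrus or CA1 markers had an unadjusted p under 0.05. Summed levels were 474 to 567 CPM in control and 529.8 to 627 CPM in fear case for the dentate gyrus, 1881 to 2509 and 1709 to 2511 CPM for oligodendrocytes, and for endothelium 14.3 to 17.8 CPM in control, 9.74 to 14.2 CPM in fear case 1 to 5 and 20.2 CPM in fear case 6. For CA1 the sums were 413 to 527 CPM in control and 424 to 481 CPM in fear case. The part of these lists in the results on the 5 genes was not tested.

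Npas4 stood higher in fear case, and the other 4 genes did not pass the test. Npas4 read 3.97, 5.79, 4.20, 3.87, 5.66 and 7.23 CPM in control 1 to 6. In fear case 1 to 6 it read 28.9, 18.9, 17.5, 25.0, 17.7 and 20.4 CPM. The groups did not overlap: the lowest fear case library was 2.42 times the highest control, and fear case 1 and 4 stood above the other fear case libraries. The means were 5.12 ± 1.34 and 21.4 ± 4.62 CPM (SD, n = 6 each). These rest on 77 to 149 counts per control library and 334 to 818 per fear case library.

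The log2 fold change of Npas4 was 2.06 (SE 0.16, 95% interval 1.72 to 2.40, edgeR's quasi-likelihood test, Benjamini-Hochberg adjusted p = 2.96e-07 over 14564 genes), a 4.17-fold difference between the groups. Of the 6 fear case libraries 6 lay above all controls. Npas4 had the lowest p of all genes tested, in the reported fit and in each of the 22 alternative fits. By level it lay between ranks 10116 and 11502 of the tested genes in the controls and between 6097 and 7785 in fear case. With the choroid plexus marker level as a covariate its log2 fold change was 2.06 (SE 0.21, adjusted p = 1.58e-05), and without fear case 6 it was 2.08 (adjusted p = 5.22e-07). Over all genes, 0.0481% were called higher, 0.0549% lower and 0.103% in either direction. That is 15 genes, and without fear case 6 it was 128 genes, 12 higher and 116 lower. Groups did not overlap for 0.597% of genes, with fear case above for 0.268% and below for 0.33%. Of the 5 genes 1 passed, higher in fear case, and Npas4 was known to respond when the 5 were chosen.

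**Figure D1:**
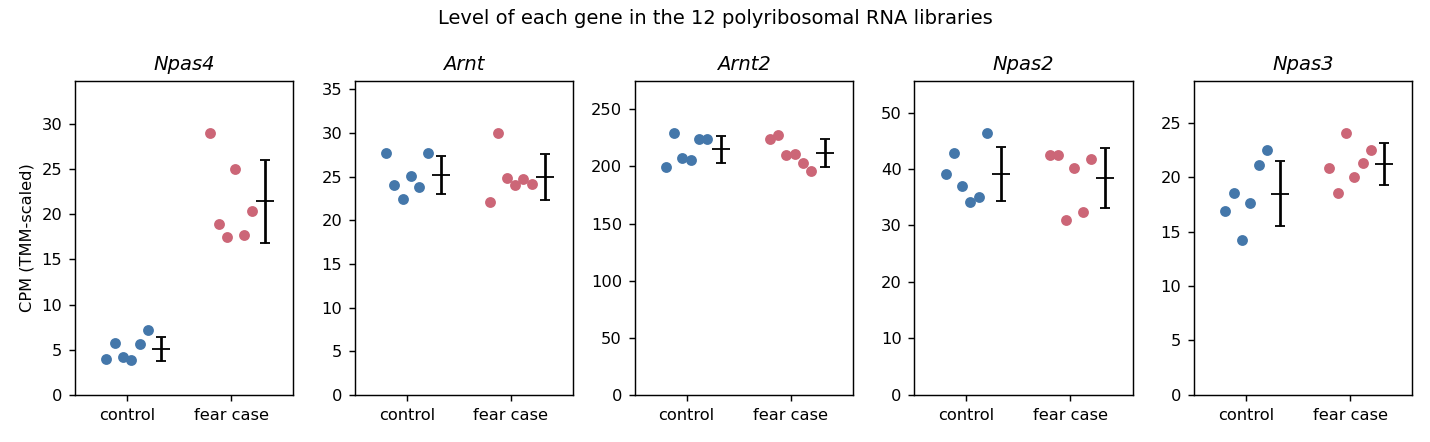
Scaled CPM (vertical axes, starting at 0, a scale of its own in each panel) of the 5 genes in 6 control and 6 fear case libraries. Points are libraries in the order of their numbers, and the bars give mean ± SD; Npas4 lies at 3.87 to 7.23 CPM in control and 17.5 to 28.9 CPM in fear case, while the groups overlap for the other 4 genes.

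Npas4 occupies bases 4984355 to 4990316 of chromosome 19, minus strand (GENCODE vM21, GRCm38), and is a compact gene of 5.96 kb with 6 exon blocks. Exons of the 5 genes share no base with those of any other gene in the count files. Because Npas4 rose, the bases before its start were read for elements of calcium-responsive and TATA promoters, in the 250 bases upstream of the RefSeq start (GRCm38.p6). The motifs were chosen after these windows had been read. The stretches that held a match are shown 5′ to 3′ on the gene's strand, with the match in capitals, beside the one stretch of Arnt that held a whole cAMP response element (CRE, TGACGTCA).
Npas4, chr19:4990128-4990157, minus strand: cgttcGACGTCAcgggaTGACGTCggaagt
Npas4, chr19:4989981-4990010, minus strand: ctgtcaggagcTATATAAggcggatcgagg
Arnt, chr3:95434140-95434169, plus strand: ttgcatttcacTGACGTCAatttggttatg

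The first Npas4 stretch held 2 matches to TGACGTC, the CRE without its last base, on opposite strands, starting 181 and 169 bases upstream of the start. TGACGTC occurred on either strand in 2.78% of 32851 such windows, and the shorter TGACG in 17.8%. Npas4 held no whole CRE, which 1.55% of windows held. The second stretch held TATATAA from 28 to 22 bases upstream, a letter string found in 3.04% of windows, and none of the 5 windows held TATAAA. The whole CRE of Arnt began 239 bases upstream, and each CRE also counts as overlapping TGACGTC matches. Arnt2, Npas2 and Npas3 held none of these CRE forms, and none of the 5 windows held the CArG box bound by serum response factor (1.47% of windows). The core ACGTG, part of many bHLH-PAS sites, occurred once each in Npas2 and Npas3 and in 16.6% of all windows. CACGTG, the E-box, was found in none of the 5 windows and in 6.02% of all windows. These are letter matches in a short window only. Because the motifs were chosen after the windows were read, the percentages do not test whether the matches exceed chance. GENCODE starts 1 Npas4 transcript further upstream, at 4990316, so the 250 bases read for Npas4 lie within the first exon of that transcript, 4989642 to 4990316. For Npas2 the outermost GENCODE start is 39193731 and the RefSeq start 39194272, so its whole window lies downstream of that GENCODE start. GENCODE also starts Arnt2 further upstream (84410176 against 84410038), and Npas3 further downstream (53248677 against 53248432). The starts of Arnt were 95434388 and 95434390. Matches and absences hold for the RefSeq windows only.

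Arnt and Arnt2 encode the common subunits with which Npas4 pairs. Arnt2, the form most abundant in neurons, read 199.9, 229, 207, 206, 224 and 224 CPM in control 1 to 6. In fear case 1 to 6 it read 224, 228, 210, 211, 203 and 195.8 CPM. The groups overlapped over nearly their whole range, and only fear case 6 lay below all controls. The log2 fold change of Arnt2 was -0.02 (SE 0.06, 95% interval -0.15 to 0.11, adjusted p = 0.970 with edgeR).

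Arnt, the broadly expressed subunit that also serves the hypoxia and dioxin pathways, read 27.7, 24.0, 22.5, 25.1, 23.8 and 27.8 CPM in control 1 to 6. In fear case 1 to 6 it read 22.0, 29.97, 24.9, 24.0, 24.7 and 24.2 CPM. Fear case 2 was above and fear case 1 below every control, with the others inside the control range. The log2 fold change of Arnt was -0.01 (SE 0.09, 95% interval -0.20 to 0.18, adjusted p = 0.991 with edgeR). For both common subunits the interval covered 0. With the choroid plexus marker level as a covariate the values were -0.12 for Arnt (SE 0.13, adjusted p = 0.850 with edgeR) and -0.10 for Arnt2 (SE 0.09, adjusted p = 0.816).

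Npas2, a paralogue of Clock that pairs with Arntl (Bmal1) in the circadian oscillator, read 39.2, 42.9, 36.9, 34.2, 35.1 and 46.3 CPM in control 1 to 6. In fear case 1 to 6 it read 42.5, 42.4, 31.03, 40.2, 32.3 and 41.8 CPM. Fear case 3 and 5 lay below all controls and the other 4 within the control range. Its log2 fold change was -0.02 (SE 0.10, 95% interval -0.23 to 0.18, adjusted p = 0.981 with edgeR).

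Npas3, a neurodevelopmental bHLH-PAS factor that pairs with Arnt proteins, read 16.9, 18.5, 14.2, 17.6, 21.1 and 22.5 CPM in control 1 to 6. In fear case 1 to 6 it read 20.8, 18.6, 24.02, 20.03, 21.3 and 22.5 CPM. Control 3 was the lowest of the 12 and fear case 3 the highest, and the other fear case libraries lay within the control range. Its log2 fold change was 0.20 (SE 0.11, 95% interval -0.03 to 0.42, adjusted p = 0.742 with edgeR), so a rise of up to 0.42 on the log2 scale lay within its interval.

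The fold of Npas4 was then set against that of each other gene by the log2 ratio of their CPM within each library (prior count 2). This ratio depends on the scaling between libraries only through the prior count. The log2 ratio of Npas4 to Arnt2 was -5.40 ± 0.29 in control and -3.33 ± 0.27 in fear case (SD, n = 6 each), a difference of 2.08. The corresponding difference was 2.07 for Arnt, 2.09 for Npas2 and 1.85 for Npas3. For each of the 4 ratios every fear case library exceeded every control. Each gave p = 0.00216 in an exact two-sided permutation test over 924 relabellings, the smallest p that the design allows, and 0.00216 after adjustment over the 4 ratios. In these samples the ratio of Npas4 to each of the 4 genes thus differed between the groups. Npas4 was known to respond when the tests were chosen, so these p values largely restate its rise and add no separate support. The 4 ratios share the Npas4 values and are not independent of each other.

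**Figure D2:**
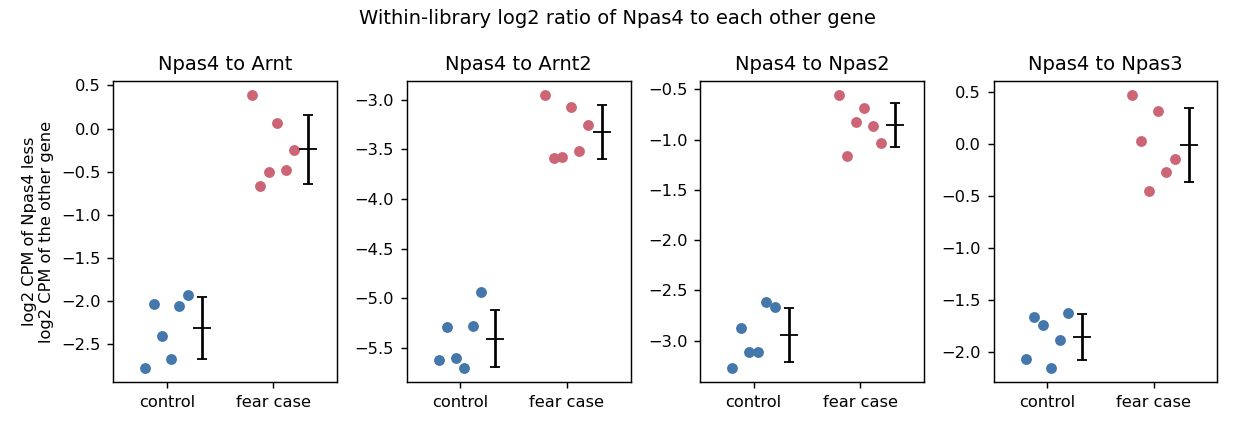
Within-library log2 ratio of Npas4 to Arnt, Arnt2, Npas2 and Npas3 (vertical axes, log2 CPM of Npas4 less that of the other gene, a scale of its own in each panel) in control and fear case. Points are libraries and bars mean ± SD; the groups are apart in every panel, by 1.85 (Npas3) to 2.09 (Npas2) between the means.

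Levels were compared between genes only per length, as CPM per kb of annotated exon (the union of a gene's exons in GENCODE vM21). In control the order was Arnt2 at 27.96 ± 1.57, Npas2 at 8.16 ± 0.98, Arnt at 3.14 ± 0.27, Npas3 at 3.08 ± 0.50 and Npas4 at 1.24 ± 0.32 (SD, n = 6). Arnt and Npas3 overlapped in range, and the other neighbours in this order did not. In fear case Npas4 stood at 5.17 ± 1.12, between Npas2 at 8.01 ± 1.10 and Npas3 at 3.53 ± 0.32. There its range of 4.23 to 7.00 overlapped that of Npas2 (6.48 to 8.87) and lay above that of Npas3 (3.09 to 3.998) and of Arnt (2.75 to 3.74).

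Per length, the level of Arnt2 was 16.7 to 28.6 times that of Npas4 in control libraries, and 4.17 to 6.48 times in fear case ones. Arnt2 thus remained the more abundant of the pair in all 12 libraries. Npas4 stood at 0.278 to 0.504 of the Arnt level in control libraries and at 1.22 to 2.54 times it in fear case, so the order of Npas4 and Arnt was opposite in the groups. The ratio of Arnt2 to Arnt, the 2 common subunits, was 8.96 ± 0.96 in control and 8.90 ± 0.93 in fear case, with overlapping ranges. Npas4 made up 2.81 ± 0.54% of the summed level per length of the 5 genes in control and 10.9 ± 1.85% in fear case. The choice of isoform and the annotated length of untranslated ends enter each of these comparisons between genes.

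**Figure D3:**
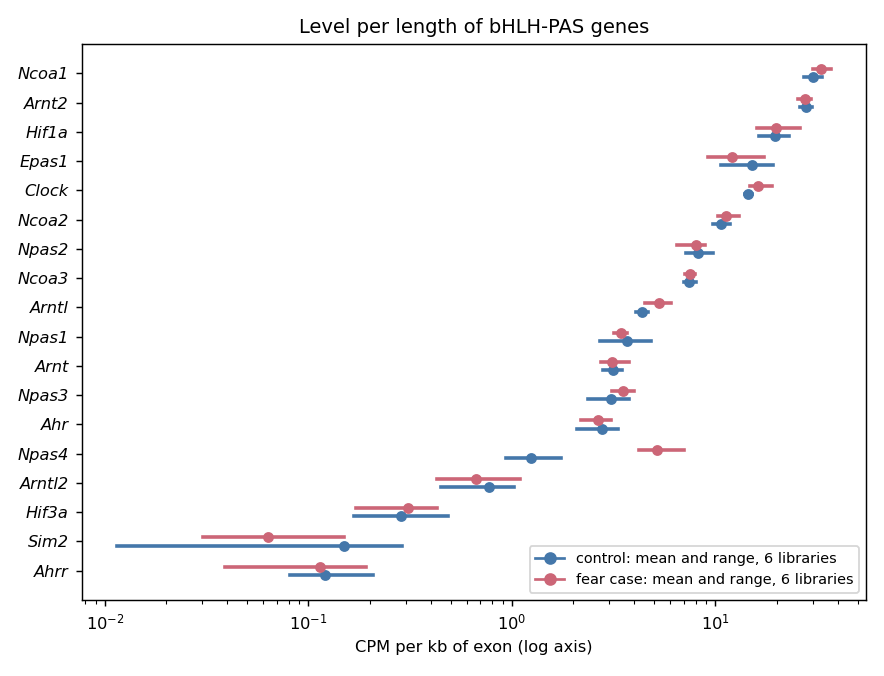
Level per length (horizontal log axis, CPM per kb of exon) of 18 bHLH-PAS genes in control and fear case; points are means and lines the range over 6 libraries, and Sim1 is left out for its low level. Npas4 moves from 1.24 to 5.17 and passes Arnt and Npas3, while Arnt2 stays at 27.96 and 27.6.

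Npas4, with fewer counts in most libraries, varied more between libraries of a group than the common subunits. Its coefficient of variation was 26.1% in control and 21.6% in fear case, against 5.61% and 5.76% for Arnt2, 8.68% and 10.6% for Arnt, 12.05% and 13.8% for Npas2, and 16.2% and 8.98% for Npas3. No test of these spreads was made.

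The remaining bHLH-PAS genes did not pass the test. Of 14 listed, 12 were tested, 0 rose and 0 fell, with a median log2 fold change of 0.02 against -0.00463 over all genes tested, and 3 had an unadjusted p under 0.05, which 7.14% of all genes had. Arntl, the clock partner of Clock and Npas2, averaged 32.7 ± 1.61 CPM in control and 39.7 ± 4.11 CPM in the other group, a log2 difference of 0.28 (SE 0.08, edgeR adjusted p = 0.280). It lay above all controls in 5 of 6 fear case libraries. Clock read 198 ± 6.72 and 222 ± 21.1 CPM (log2 fold change 0.17, adjusted p = 0.597), also with 5 of 6 above all controls. Epas1, the endothelial hypoxia-inducible factor, read 84.5 ± 18.9 and 67.4 ± 15.3 CPM (log2 fold change -0.32, adjusted p = 0.617). Its log2 fold change was -0.13 with the choroid plexus covariate and -0.46 without fear case 6.

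Hif1a, the general hypoxia-inducible factor, averaged 115.6 CPM in control and 117.2 CPM in fear case, a log2 fold change of 0.021 that was 0.26 with the covariate (edgeR adjusted p = 0.616). Npas1, a marker of some inhibitory neurons, averaged 11.1 and 10.3 CPM, and the dioxin receptor gene Ahr 17.05 and 16.3 CPM. The coactivators Ncoa1, Ncoa2 and Ncoa3 had log2 fold changes of 0.13, 0.08 and 0.01. The lowly counted Arntl2, Hif3a and Ahrr had wide intervals, for example -0.83 to 0.70 for the Ahr repressor gene Ahrr. Sim1 and Sim2, factors of hypothalamus and midline, averaged under 1 CPM in each group and were not tested.

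**Figure D4:**
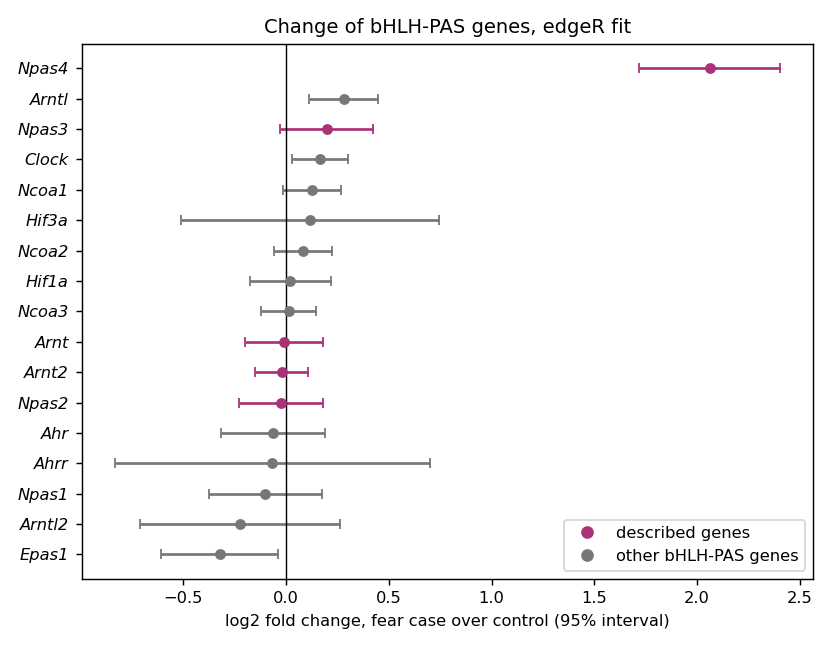
Log2 fold change of fear case over control (horizontal axis, points with 95% intervals from the edgeR fit) for the 17 bHLH-PAS genes tested, with the 5 described genes in purple and the others in grey. Npas4 stands at 2.06, and the other 16 genes lie between -0.32 and 0.28.

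Genes reported elsewhere to depend on Npas4 in neurons were read next, to see which stood higher at the same collection time. Of 8 listed and tested, 2 rose, 0 fell and 6 did not pass, with a median log2 fold change of 0.14. Over all genes tested 0.0481% were called higher, and the median was -0.00463. The list was chosen with earlier results of these data known, so its count is no test of dependence on Npas4. Arc and Fos, immediate early genes that are also induced without Npas4, were the 2 that rose. Arc, a synaptic regulator of glutamate receptor trafficking, ranged from 71.4 to 106.8 CPM in control and from 124.7 to 197 CPM in fear case. The zinc-finger factor gene Egr1 stood 0.58 higher on the log2 scale (edgeR adjusted p = 0.108) and the synaptic kinase gene Plk2 0.14 higher (edgeR adjusted p = 0.632). Bdnf, the neurotrophin gene best known as an Npas4 target, averaged 34.6 ± 3.76 and 36.8 ± 2.87 CPM (log2 fold change 0.09, adjusted p = 0.859). The pentraxin gene Nptx2 averaged 18.7 and 18.1 CPM, the p53 regulator gene Mdm2 74.4 and 75.2 CPM, and the synaptotagmin gene Syt10 9.34 and 10.3 CPM.

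Factors and channels that carry calcium signals to the Npas4 gene, with the glucocorticoid receptor gene Nr3c1, made up a list of 13. Of these 13 tested genes 0 passed, and the median log2 fold change was 0.00691. The 4 of lowest p were Mef2a (log2 fold change 0.18, adjusted p = 0.597), Mkl2 (0.13, adjusted p = 0.742), the L-type calcium channel gene Cacna1c (0.14, adjusted p = 0.775) and Cacna1d (0.11, adjusted p = 0.848), all with edgeR.

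Targets of the other pairs that Arnt and Npas2 form also had no member that passed. Of 10 tested hypoxia targets, genes of the pair of Arnt and Hif1a, the median log2 fold change was -0.00765, and Bnip3 (0.13), Egln3 (-0.27), Pdk1 (0.08) and Vegfa (-0.09) had the lowest p. Of the aryl hydrocarbon receptor targets 4 were tested, with a median of -0.22 and values of -0.38 for Nqo1, -0.44 for Cyp1b1, 0.08 for Tiparp and -0.07 for Ahrr. Of the clock targets 12 were tested, with a median of -0.03 and 11 negative values, the lowest p being those of Dbp (-0.21), Bhlhe40 (0.09), Cry2 (-0.06) and Tef (-0.04). With edgeR 0 of the hypoxia targets, 0 of the aryl hydrocarbon receptor targets and 1 of the clock targets had an unadjusted p under 0.05. DESeq2 and limma-voom called 0 of the genes named from these 3 lists, from the list of 13 and from the remaining bHLH-PAS genes.

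Genes whose pattern was most like that of Npas4 were ranked by Pearson r of log2 CPM over the 12 libraries, among 14563 other tested genes. The 5 nearest were Arc (r = 0.97), Fos (0.96), Junb (0.96), Btg2 (0.93) and Fosb (0.91), all called higher in fear case, though Fosb was not called with the choroid plexus covariate (log2 fold change 0.93, edgeR adjusted p = 0.412). Since the groups lie apart, r was also read within each group of 6 libraries: it was 0.93 in control and 0.80 in fear case for Arc, 0.71 and 0.74 for Fos, 0.75 and 0.79 for Junb, and 0.66 and 0.64 for Fosb. For Btg2 it was -0.29 in control and 0.70 in fear case. The same r with Npas4 was 0.71 and 0.65 for Npas2, and 0.89 and 0.37 for Arnt2. It was 0.81 and -0.30 for Npas3, and 0.19 and -0.60 for Arnt. High r within a group was thus not particular to the 5 nearest genes. Fear case 1, with the highest Npas4 level, also had the highest Arc (197 CPM) and Fos (33.7 CPM). These values describe 12 libraries whose genes share depth and scaling.

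**Figure D5:**
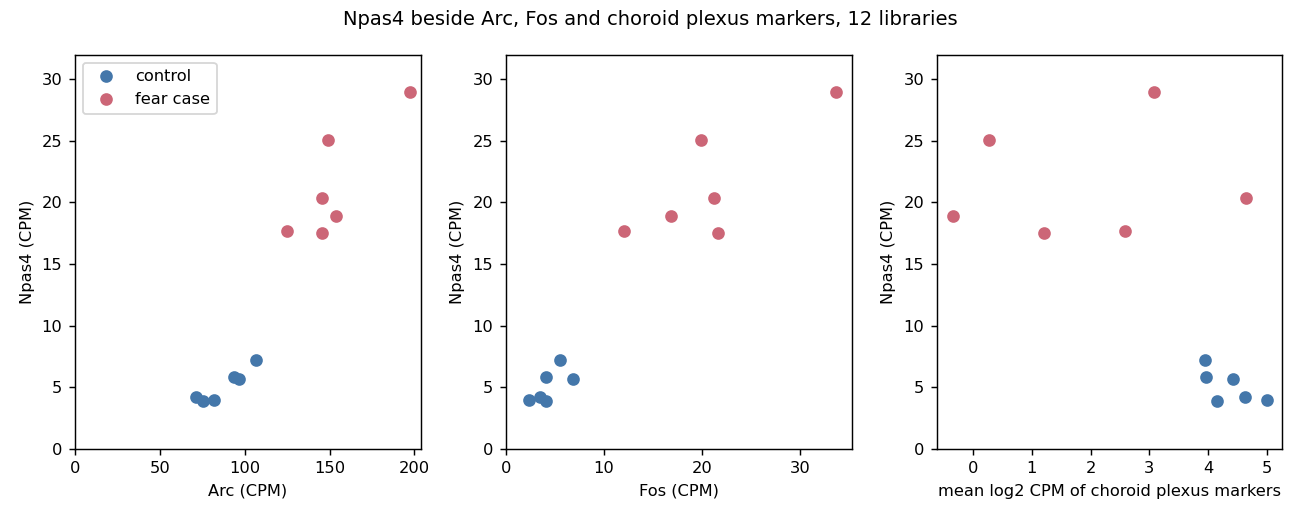
Npas4 (vertical axes, CPM) beside Arc (CPM), Fos (CPM) and the mean log2 CPM of 13 choroid plexus markers (horizontal axes), 1 point per library. Fear case 1 is highest for all of Npas4, Arc and Fos, and fear case 6, with a choroid plexus level of 4.64 inside the control range of 3.94 to 4.99, has 20.4 CPM of Npas4.

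The choroid plexus panel gives the library make-up beside Npas4. Fear case 2, with the lowest marker level of -0.34, had 18.9 CPM of Npas4, and fear case 1, at 3.07, had 28.9 CPM. For the other 4 genes the nearest patterns were taken after removing group means. They were Olfm2 (r = 0.95), Csmd2 and Mok for Arnt, Synj2 (0.93), Arhgap44 and Zxdc for Arnt2, Kctd9 (0.92), Tgm2 and Rab22a for Npas2, and Gm13031 (0.91), Acaca and Igip for Npas3, each over 12 libraries. They are the highest of 14563 candidates per gene, and whether such r exceeds chance was not tested. Gm13031 averaged only 0.56 CPM, and r of Igip with Npas3 was 0.57 within fear case.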

How the data were processed

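The deposited files hold counts per gene symbol, 1 file per library, made by the authors and assumed here to be raw counts. Per the submitters' processing notes, cutadapt, TopHat, Bowtie and HTSeq were used with mm10, with versions, annotation and strand setting not given in the sources used here. Of assigned, unassigned and ambiguous counts, 25.5% to 33.3% fell on no gene and were left out. Per the labels' protocols, RNA was pelleted for 4 h through 1 M sucrose, and libraries were read as 40 bp pairs.

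Counts were filtered with filterByExpr (minimum count 10, minimum total 15), scaled by TMM and tested by edgeR 4.0.16 (quasi-likelihood, R 4.3.3, no covariate, calls at adjusted p under 0.05). SE is the log2 fold change over the square root of F, and intervals use the test's degrees of freedom. Ratios were tested by exact permutation. Alternatives used DESeq2 1.42.0, limma 3.58.1 (voom), other scalings and filters, a replicate block, a choroid plexus covariate and each library left out. The tests were checked on simulated data.

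The members, gene lists and tests were chosen with earlier results of these data known. The naming rule took the 5 genes, the other bHLH-PAS genes, called members and the 4 of lowest p per list, and the nearest patterns. Bdnf, Nptx2, Mdm2 and Syt10 fall outside it and were chosen after their values were seen. The promoter motifs were chosen after the windows were read. RefSeq windows matched all 5 genes.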

Additional observations from a re-analysis of the deposited data

Results flagged for a closer look

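Among 18 sets of 6 libraries examined (5 genes and 4 ratios, each in 2 groups), 1 held a library far from the others. The Arnt level of fear case 2 was 29.97 CPM, and its gap to the next fear case library was 0.645 of the whole range of the group, above the 95% critical value of Dixon for 6 values. Chance alone marks about 1 set in 20. Without fear case 2 the log2 fold change of Arnt was -0.07.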

How the results depend on the processing

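Npas4 was called in all 22 alternatives, with a log2 fold change between 1.96 and 2.19, and Arnt, Arnt2, Npas2 and Npas3 in 0 of 22. The 4 ratios kept direction and call in all 14 alternatives, which again largely restates the rise of Npas4 and adds no separate support. With the replicate block (an exact swap of labels within numbers) their differences stayed at 2.07, 2.08, 2.09 and 1.85, with adjusted p = 0.03125, the smallest 6 pairs allow. Nothing in the labels pairs the numbers, and same-numbered libraries deviated together with r of -0.17 to 0.05, with 2 of 6 controls nearest to their own number. Under the replicate block 18 genes were called and Npas4 had a log2 fold change of 2.06. The counts over all genes moved more, and the cause was not tested. From 15 called (7 higher, 8 lower), they went to 33 (26 lower) without scaling factors, 37 (11 higher, 26 lower) with no filter, 61 (13 higher, 48 lower) with DESeq2 and 5 (0 lower) with the choroid plexus covariate. There were 4 lower with a mean of at least 1 CPM and 5 with limma-voom. With 1 library left out, 9 to 128 were called, 6 to 12 higher and 3 to 116 lower, the highest each time without fear case 6. Fosb was not called with the covariate (0.93). Some values near 0 turned sign. Over libraries left out, Arnt ran from -0.068 to 0.022, Npas2 from -0.058 to 0.030, Hif1a from -0.071 to 0.077, Hif3a from -0.00641 to 0.33, Ahrr from -0.26 to 0.16, Ncoa3 from -0.00336 to 0.037, Tiparp from -0.000461 to 0.13, Tef from -0.080 to 0.010, Nptx2 from -0.12 to 0.039 and Mdm2 from -0.011 to 0.044. Hif1a was -0.017, Ncoa3 -0.016 and Mdm2 -0.018 without scaling factors. With the covariate Ncoa3 was -0.069, Ahrr 0.26, Nptx2 0.072, Hif1a 0.26, Tiparp 0.31, Epas1 -0.13 and Cyp1b1 -0.053. Egr1 was called without fear case 6 (0.61) or with no filter (0.58). With 77 to 149 counts, the control level of Npas4 is the least precise of its values.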
